A study of Mus musculus with 4 samples.

Results

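The aminoacyl-tRNA synthetases are the enzymes that load tRNAs with their amino acids. The genes described were 37 of the 24369 listed, and they were taken by symbol from a fixed list of 21 cytosolic and 16 mitochondrial enzymes. All 37 were found and all 37 had enough reads to be tested. They were measured by bulk RNA-seq in mouse CD4 T cells transduced with an empty vector retrovirus (EV RV, 2 libraries) or with a retrovirus encoding Tox (Tox RV, 2 libraries). In both groups naïve CD4 T cells from the spleens of wild-type C57BL/6 mice were activated with anti-CD3 bound to the plate, anti-CD28 in solution and human IL-2 and transduced on day 2. On day 5 they were restimulated, for which the methods name biotinylated anti-CD3 with streptavidin and the series' description anti-CD3 with anti-CD28. By the methods, CD4 GFP+ cells were then sorted. MSCV-IRES-eGFP was the empty vector and MSCV-Tox-IRES-eGFP carried Tox, so both groups hold virus and GFP, and Tox was driven from the viral vector and not from its own locus. The methods call the 2 libraries of a group biological replicates, and the legend of the comparison says that they come from individual mice. In bulk RNA a difference in the number of cells of a type cannot be told apart from a difference in RNA per cell.

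Each synthetase recognises a given amino acid and the tRNAs that carry it, and the charged tRNA then delivers that amino acid to the ribosome. The cytosol and the mitochondrion mostly use separate enzymes encoded by separate nuclear genes, and mitochondrial genes mostly have a symbol that ends in 2. Tarsl2 is an exception, since it encodes a second cytosolic threonyl-tRNA synthetase, and it was counted as cytosolic here. Gars and Kars each give both the cytosolic and the mitochondrial enzyme from a single gene and were also counted as cytosolic. Synthetases fall into class I and class II, which have unrelated catalytic folds. Several cytosolic enzymes are held in a multisynthetase complex by the scaffold proteins Aimp1, Aimp2 and Eef1e1. Activated T cells make protein at a high rate, and many cytosolic synthetase genes are known targets of Atf4, the transcription factor that responds to amino acid shortage. Wars, the cytosolic tryptophanyl-tRNA synthetase, is in addition known to be induced by interferon-γ.

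The libraries held 46989997 to 74548723 expected counts, and the ribosomal RNA gene Rn45s took 7.14% to 24.7% of them. EV RV replicate 1 had the highest Rn45s share and stood apart from the other 3 libraries on the first principal component of all genes (−53.8 against 5.70 to 25.8, 58.0% of the variance). Most log2 fold changes and group medians that moved without it are therefore also given without it. Tox mRNA was at 7.22 and 3.37 TPM in the EV RV libraries and at 69.1 and 56.9 TPM in the Tox RV libraries. This was a log2 fold change of 3.68 (SE 0.38, adjusted p = 0.490 by edgeR's quasi-likelihood test, Benjamini-Hochberg adjustment and 1.65e-20 by DESeq2). The CD4 T cell markers Cd3d, Cd3e, Cd3g, Cd247, Cd4, Cd28 and Thy1 were present in every library, with a summed level of 1754 to 2469 TPM. Summed levels were 3.32 to 4.98 TPM for 2 CD8 T cell markers, 1.66 to 2.28 TPM for 5 B cell markers (Ms4a1 and Pax5 listed at 0) and 1.06 to 2.56 TPM for 6 myeloid markers. The 6 NK cell markers summed to 91.6 and 58.2 TPM in EV RV replicates 1 and 2 and to 62.3 and 37.5 TPM in Tox RV replicates 1 and 2, with Ncr1 listed at 0 in all 4.

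Promoter sequence was available from RefSeq (GRCm38.p6, the assembly also known as mm10) for 28 of the 37 genes, as 250 bases before and 50 bases after the annotated start. The C/EBP-ATF response element (CARE), the site through which Atf4 acts on its targets, was searched as TGATGNAA on both strands. It was found in 5 of the 28 (17.9%), all of them cytosolic synthetase genes, and in 1219 of the 27025 genes of the whole table (4.51%). For each of the 5 genes a stretch of 30 bases around the match nearest to the start is shown, 5′ to 3′ on the strand of the gene with the matching letters in capitals, because these are the synthetase genes whose promoters carry the letters of that site.
Aars (chr8:111033840-111033869, plus strand): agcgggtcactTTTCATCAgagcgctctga
Gars (chr6:55037960-55037989, plus strand): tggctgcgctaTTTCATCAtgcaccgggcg
Iars (chr13:49682126-49682155, plus strand): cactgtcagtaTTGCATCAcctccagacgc
Tars (chr15:11399655-11399684, minus strand): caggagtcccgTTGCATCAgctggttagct
Yars (chr4:129189895-129189924, plus strand): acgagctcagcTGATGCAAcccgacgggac
Counted from 1 at the annotated start, these matches began at position 10 in Aars, −30 in Gars, 8 in Iars, −15 in Tars and 4 in Yars. The E-box CACGTG, the site of Myc among other factors, was found in the promoters of Aars, Ears2, Farsb, Iars and Tars (17.9% of the 28, against 8.09% of all 27025) and did not overlap the CARE matches shown. Aars, Iars and Tars thus held both sets of letters. A match describes the letters only, and binding was not measured in these data.

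Cytosolic synthetase mRNAs were more abundant than mitochondrial ones in all 4 libraries. In TPM, which corrects for transcript length, the median cytosolic gene was at 71.6 and 102 in EV RV replicates 1 and 2, against 89.1 and 88.0 in Tox RV replicates 1 and 2. The median mitochondrial gene was at 15.5 and 16.2 in EV RV and at 15.1 and 15.6 in Tox RV. The groups therefore overlapped in both compartments, and EV RV replicate 1 had the lowest cytosolic median. Together the 37 genes made up 0.198% and 0.228% of all TPM in EV RV, against 0.218% and 0.212% in Tox RV. By mean level they ranged from rank 590 (Kars) to rank 9272 (Wars2) among the 24369 genes.

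**Figure D1:**
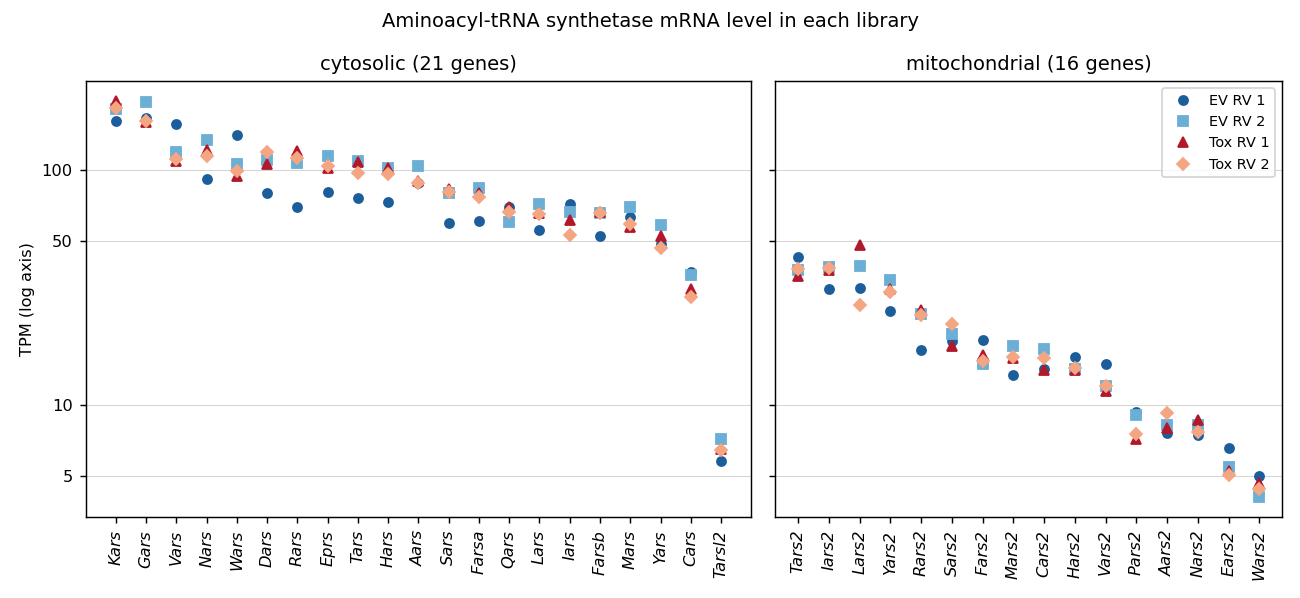
Level of each synthetase mRNA in each library, in TPM on a log axis, with 1 point per library and genes ordered by their mean within each compartment. Kars (mean 180 TPM) and Gars (mean 170 TPM) lead the cytosolic panel and Tarsl2 (mean 6.52 TPM) ends it, and Tars2 (mean 38.4 TPM) leads the mitochondrial panel.

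Kars, which charges lysine tRNAs and belongs to the multisynthetase complex, had the highest mean level. It was at 160 and 181 TPM in EV RV and at 196 and 183 TPM in Tox RV, so both Tox RV libraries were above each EV RV library. Gars, the glycyl-tRNA synthetase, came next at 165 and 193 TPM in EV RV against 160 and 161 TPM in Tox RV. These are the 2 genes that serve both compartments. Vars, the valyl-tRNA synthetase, was at 156 and 119 TPM in EV RV and at 109 and 111 TPM in Tox RV. Nars, the asparaginyl-tRNA synthetase, was at 91.2 and 134 TPM in EV RV and at 121 and 114 TPM in Tox RV. Wars was at 141 and 106 TPM in EV RV and at 93.7 and 98.9 TPM in Tox RV. Vars and Wars were highest in EV RV replicate 1, whereas Nars was lowest there. The means of Vars, Nars and Wars (124, 115 and 110 TPM) were closer to each other than the 2 EV RV libraries were for any of them, so their order is not resolved. At the other end, Cars, which charges cysteine tRNAs, had a mean of 33.2 TPM. Tarsl2 had a mean of 6.52 TPM, and Tars, the main cytosolic threonyl-tRNA synthetase, exceeded it 13.1-fold and 15.1-fold in EV RV against 16.4-fold and 14.9-fold in Tox RV. Farsa and Farsb, the subunits of the cytosolic phenylalanyl-tRNA synthetase, stayed close to each other, with a Farsa to Farsb ratio of TPM of 1.15 and 1.28 in EV RV against 1.20 and 1.18 in Tox RV.

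The 8 enzymes of the multisynthetase complex (Dars, Eprs, Iars, Kars, Lars, Mars, Qars and Rars) had mean levels from 62.2 TPM (Mars) to 180 TPM (Kars). Eprs, a single protein that charges both glutamate and proline tRNAs, had a mean of 99.9 TPM. Iars, Lars, Mars and Qars lay within 62.2 to 66.3 TPM and were not separable, since the 2 EV RV libraries differed by more than this range for each of Iars, Lars, Mars and Qars. The scaffold mRNAs were at similar levels. Aimp1 was at 90.5 and 95.5 TPM in EV RV and at 107 and 102 TPM in Tox RV. Aimp2 was at 52.5 and 72.0 TPM in EV RV and at 59.4 and 62.0 TPM in Tox RV. Eef1e1 was at 57.2 and 91.8 TPM in EV RV and at 108 and 86.4 TPM in Tox RV.

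Among mitochondrial enzymes the highest mean levels were those of Tars2 (38.4 TPM), Iars2 (36.5 TPM), Lars2 (36.3 TPM) and Yars2 (30.1 TPM), and the lowest were those of Ears2 (5.62 TPM) and Wars2 (4.55 TPM). Lars2, the mitochondrial leucyl-tRNA synthetase, differed most between libraries of a group. It was at 31.5 and 39.1 TPM in EV RV and at 47.9 and 26.6 TPM in Tox RV, so that its highest and its lowest library were both Tox RV. In log2 counts per 1000000 (CPM, scaled by TMM, with 0.5 CPM added) the 2 Tox RV libraries differed by 0.84 for Lars2, which ranked 241 of the 14143 genes tested. For the other 36 members this difference was smaller, with a median absolute value over all members of 0.081. With all libraries the log2 fold change of Lars2 was 0.15 (SE 0.31). It was −0.34 without Tox RV replicate 1, 0.52 without Tox RV replicate 2 and −0.028 without EV RV replicate 1.

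Where an amino acid had separate enzymes among these genes, and leaving Tarsl2 aside, the cytosolic mRNA exceeded the mitochondrial one in all 4 libraries. The 17 ratios of TPM ran from 1.37 (Lars to Lars2 and Iars to Iars2, each in a Tox RV library) to 28.1 (Wars to Wars2 in EV RV replicate 1). Wars to Wars2 was the widest pair in every library, at 28.1 and 25.9 in EV RV against 20.0 and 22.4 in Tox RV, with both Tox RV values below both EV RV values. Yars to Yars2 was among the narrowest, at 1.92 and 1.72 in EV RV against 1.68 and 1.54 in Tox RV. Both Tox RV ratios lay below each EV RV ratio for Aars, Iars, Mars, Vars, Wars and Yars and above each for Rars to Rars2 and Eprs to Pars2, and the other pairs overlapped. Iars to Iars2 was at 2.29 and 1.70 in EV RV against 1.62 and 1.37 in Tox RV. Eprs to Pars2, both of which charge proline tRNAs, was at 8.59 and 12.5 in EV RV against 14.1 and 13.7 in Tox RV. In the GENCODE M21 gene models Aars shares 1326 exon bases with Exosc6 on the same strand, and its longest coding transcript has 5750 bases. The deposited length of Aars was 3728, so the model used for counting may not hold these bases. Whether reads of Aars were divided with Exosc6 is therefore not known. The difference in these ratios between groups was not tested.

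**Figure D2:**
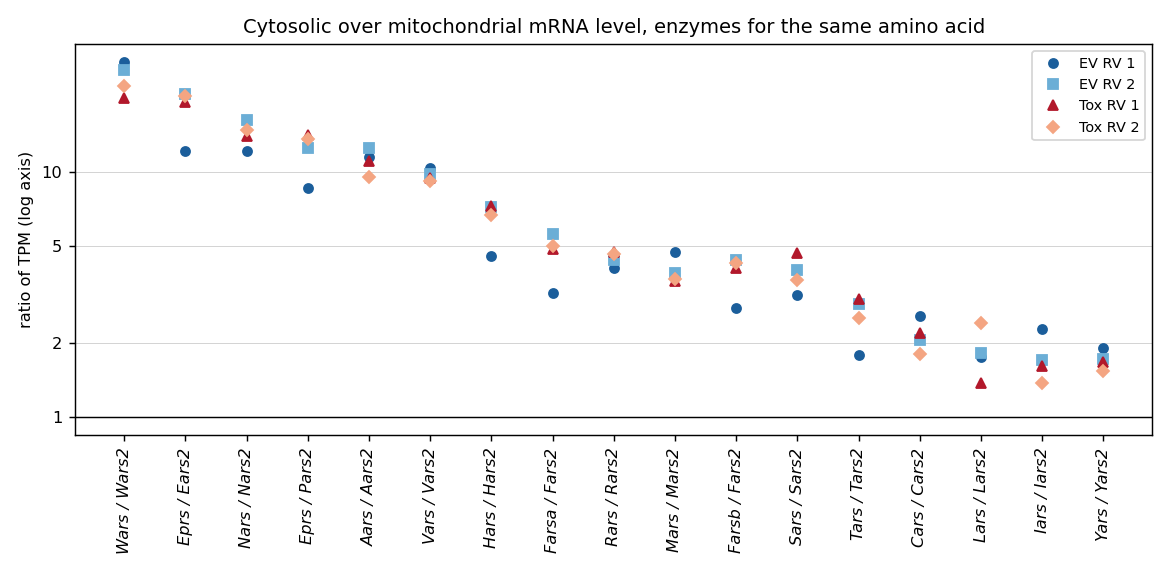
Ratio of the cytosolic to the mitochondrial mRNA level (TPM, log axis) for enzymes of the same amino acid, with 1 point per library. All points lie above 1, from 1.37 to 28.1, and EV RV replicate 1 is the lowest library for Eprs to Ears2 (12.1 against 19.3 to 20.8) and for Farsa to Fars2 (3.20 against 4.85 to 5.58).

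Whether Tox altered these mRNAs was addressed by comparing Tox RV with EV RV across all 14143 genes tested. None of the 37 members passed an adjusted p of 0.05 by edgeR's quasi-likelihood test, where 0 genes in all (0%) passed, and none had an unadjusted p below 0.05, which 512 genes (3.62%) had. By DESeq2 22 genes (0.156%) passed the adjusted threshold, none of them members, and 0 members had an unadjusted p below 0.05, which 609 genes (4.31%) had. The log2 fold change was above 0 for 24 members and below 0 for 13, beside 7135 and 7008 of all genes tested. Its median was 0.14 over the cytosolic members, 0.098 over the mitochondrial members and 0.0036 over all genes tested. The fitted fold changes ran from 0.846 (Wars) to 1.39 (Rars). For 36 of the 37 members the 95% confidence interval lay within 2-fold in either direction, and for Rars it reached 2.15-fold higher in Tox RV. The median standard error of a member was 0.19 on the log2 scale.

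**Figure D3:**
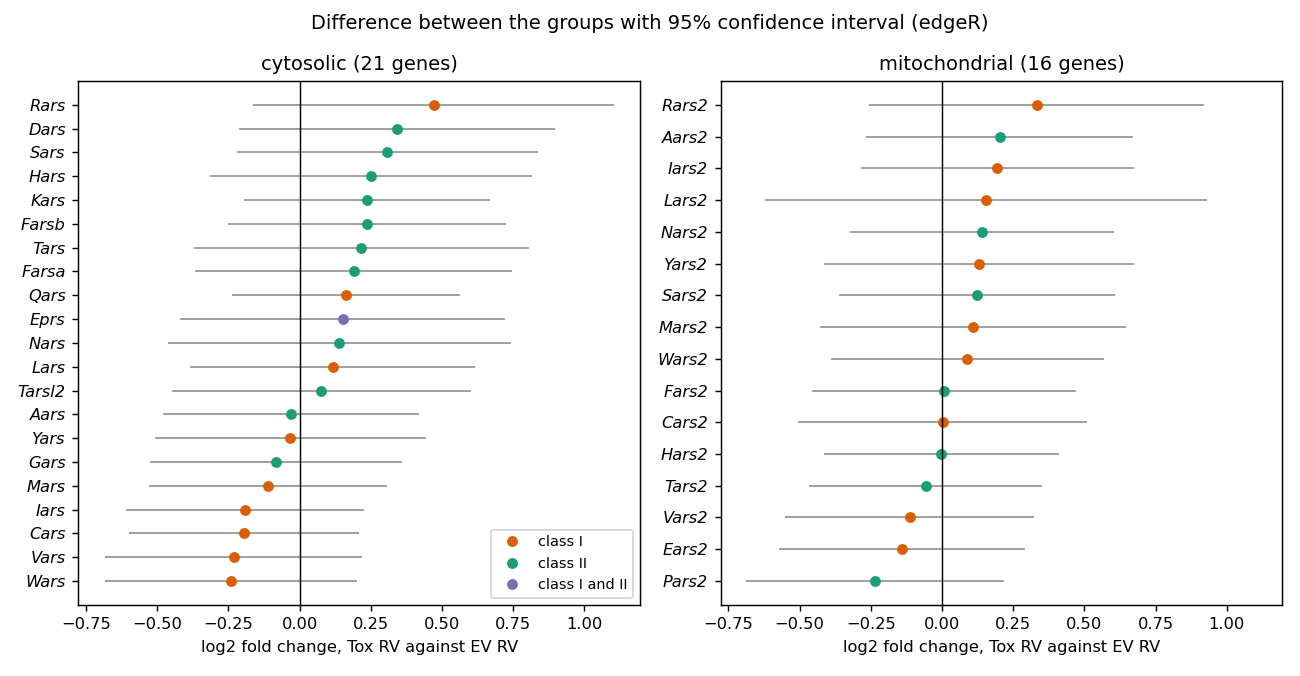
Log2 fold change of each member, Tox RV against EV RV, with its 95% confidence interval from edgeR, coloured by synthetase class. All 37 intervals include 0, from −0.69 at the lowest end (Pars2) to 1.11 at the highest (Rars).

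Rars, the arginyl-tRNA synthetase of the multisynthetase complex (chr11:35808381-35834506, minus strand, GRCm38), had the largest log2 fold change and the smallest p. It was at 82.9 and 133 CPM in EV RV (mean 108 ± 35.7, SD, n = 2) and at 155 and 144 CPM in Tox RV (mean 150 ± 7.79, SD, n = 2). Both Tox RV libraries were above each EV RV library, and EV RV replicate 1 was well below the other 3. The log2 fold change was 0.47 (SE 0.26, unadjusted p = 0.119, adjusted p = 0.897, edgeR quasi-likelihood test, Benjamini-Hochberg adjustment). It was 0.16 without EV RV replicate 1 and 0.85 without EV RV replicate 2. Its mitochondrial counterpart Rars2 was at 17.7 and 26.5 CPM in EV RV and at 28.6 and 27.2 CPM in Tox RV. The log2 fold change of Rars2 was 0.33 with all libraries (SE 0.24, adjusted p = 0.897, same test) and 0.066 without EV RV replicate 1.

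Dars, the aspartyl-tRNA synthetase of the complex, was at 97.5 and 140 CPM in EV RV and at 142 and 159 CPM in Tox RV, a log2 fold change of 0.34 (SE 0.22) that was 0.099 without EV RV replicate 1 and 0.63 without EV RV replicate 2. Sars, which charges serine tRNAs, was at 124 and 175 CPM in EV RV and at 189 and 182 CPM in Tox RV, a log2 fold change of 0.31 (SE 0.21). The value for Sars was 0.078 with EV RV replicate 1 left out and 0.58 with EV RV replicate 2 left out. For Kars the values were 184 and 218 CPM in EV RV against 244 and 229 CPM in Tox RV, a log2 fold change of 0.24 (SE 0.17), with 0.11 and 0.37 when EV RV replicate 1 or 2 was left out. In Dars, Sars and Kars the groups did not overlap, and the lowest library was again EV RV replicate 1. Hars, the histidyl-tRNA synthetase, was at 80.7 and 119 CPM in EV RV and at 123 and 115 CPM in Tox RV, where the groups overlapped (log2 fold change 0.25, SE 0.23). With EV RV replicate 1 left out the value for Hars was −0.0075. Hars shares 195 exon bases with Hars2 on the opposite strand, and the use of strand in counting is not given in the sources used here.

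On the lower side, Wars had the most negative log2 fold change. It was at 203 and 167 CPM in EV RV and at 152 and 161 CPM in Tox RV, so both Tox RV libraries were below each EV RV library, a log2 fold change of −0.24 (SE 0.18, unadjusted p = 0.229, adjusted p = 0.897, edgeR with Benjamini-Hochberg adjustment). Vars was at 380 and 305 CPM in EV RV and at 288 and 295 CPM in Tox RV, a log2 fold change of −0.23 (SE 0.18). With EV RV replicate 1 left out the log2 fold changes were −0.10 for Wars and −0.070 for Vars. Pars2, the mitochondrial prolyl-tRNA synthetase, was at 13.5 and 13.6 CPM in EV RV and at 11.08 and 11.97 CPM in Tox RV, a log2 fold change of −0.24 (SE 0.18) that was −0.25 without EV RV replicate 1 and −0.23 without EV RV replicate 2. In Pars2 the 2 EV RV libraries differed little, unlike in Wars and Vars, where EV RV replicate 1 was the highest library. Over all members, both Tox RV libraries were above each EV RV library in 9 (24.3%; Dars, Farsb, Kars, Qars, Rars, Sars, Aars2, Iars2 and Rars2), against 18.6% of all genes tested. They lay below in 6 (16.2%; Cars, Iars, Vars, Wars, Ears2 and Pars2), against 17.4% of all genes tested. The remaining 22 overlapped. In the GENCODE M21 gene models Iars2 shares 2034 exon bases with Rab3gap2 on the opposite strand, and its longest coding transcript has 5471 bases. The deposited length of Iars2 was 3540, so the model used for counting may not hold these bases. Whether reads of Iars2 were divided with Rab3gap2 is therefore not known. An Iars transcript has 1656 bases that are 96.0% identical to the Gm4849 transcript. Gm4849 is not among the genes listed, so any reads from it may have been counted as Iars.

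The cytosolic classes had medians of opposite sign when all 4 libraries were used. Of the 9 cytosolic class I enzymes 3 were higher and 6 lower in Tox RV (median log2 fold change −0.11), and of the 11 cytosolic class II enzymes 9 were higher and 2 lower (median 0.22). Among mitochondrial enzymes the medians were 0.11 for 9 class I genes and 0.0058 for 7 class II genes (below 0 with DESeq2's size factors), but −0.028 and 0.037 without EV RV replicate 1. The 8 enzymes of the multisynthetase complex had a median of 0.16 with 6 higher and 2 lower, and the 13 cytosolic enzymes outside it had a median of 0.075 with 7 higher and 6 lower. Without EV RV replicate 1 the complex had a median of 0.0041 (4 higher, 4 lower) and the enzymes outside it a median of −0.10 (2 higher, 11 lower), and without EV RV replicate 2 the medians were 0.36 and 0.28. The 5 genes with a CARE match, shown above as sequences, had a median of −0.032, with Tars higher and Aars, Gars, Iars and Yars lower. Their median was −0.18 without EV RV replicate 1 (0 higher, 5 lower) and 0.13 without EV RV replicate 2 (4 higher, 1 lower). Scaling by library totals instead of TMM moved the median of all genes to 0.12. With it 31 members were above 0 and 6 below, beside 9107 above and 5036 below over all genes tested. The medians of cytosolic class I and of the genes with a CARE match were then 0.0048 and 0.078, above 0 but still below that of all genes. None of these genes passed the test, and these medians describe the fit without a test of their own.

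The differences between the 2 EV RV libraries were larger than the difference between groups for most members. The absolute log2 difference between the EV RV libraries exceeded the absolute log2 fold change in 32 of 37 members. The matching share of all genes tested was not computed, so this count is not read as particular to the members. The median absolute difference between the EV RV libraries was 0.32 over the members and 0.33 over all genes tested. The absolute difference between the EV RV libraries exceeded that between the Tox RV libraries in 31 of 37 members, against 72.9% of all genes tested. EV RV replicate 1 was below EV RV replicate 2 in 27 members (73.0%), against 49.7% of all genes tested. It was the lowest of the 4 libraries in 15 of 21 cytosolic members and in 8 of 16 mitochondrial members, 62.2% of all members, against 5239 of the 14143 genes tested. All 11 cytosolic class II enzymes were lowest in EV RV replicate 1, and on the log2 scale their difference from EV RV replicate 2 ran from −0.25 (Kars) to −0.63 (Nars). In contrast, 3 of the 9 cytosolic class I enzymes were lowest there and 3 others (Iars, Vars and Wars) were highest there.

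The largest differences between the EV RV libraries were those of Rars (−0.68, EV RV replicate 1 minus replicate 2, log2 CPM), Nars (−0.63), Tars (−0.59), Eprs (−0.58) and Rars2 (−0.57). Tars was at 113 and 170 CPM in EV RV and at 174 and 156 CPM in Tox RV. Eprs was at 226 and 338 CPM in EV RV and at 310 and 317 CPM in Tox RV. Nars was at 137 and 212 CPM in EV RV and at 198 and 186 CPM in Tox RV. In Eprs and Nars both Tox RV libraries lay between the 2 EV RV libraries, as they did in 13 of the 37 members, against 25.1% of all genes tested. The Rn45s share (24.7% against 7.14% to 11.97%) and the NK cell marker sum were also highest in EV RV replicate 1, and their part in these differences was not tested.

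**Figure D4:**
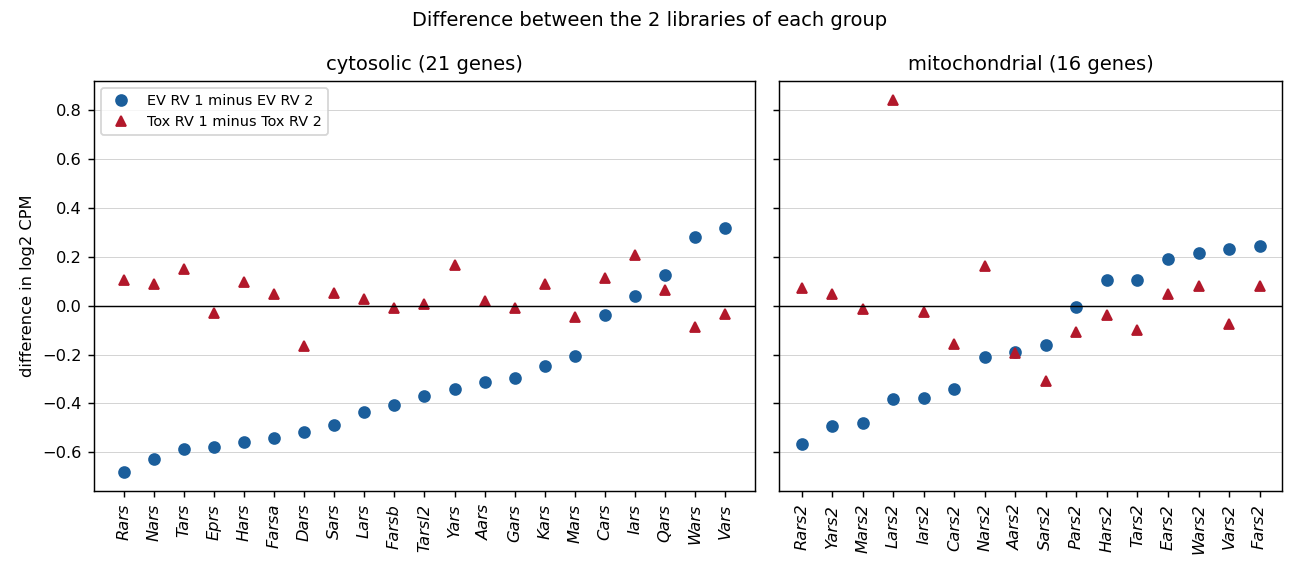
Difference in log2 CPM between replicates 1 and 2 of EV RV (circles) and of Tox RV (triangles) for each member, ordered by the EV RV difference. EV RV replicate 1 is lower for 17 of 21 cytosolic and 10 of 16 mitochondrial members, while the Tox RV differences stay within 0.31 in absolute value apart from Lars2 at 0.84.

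The direction of the group difference depended on which EV RV library was used. Without EV RV replicate 1 the median log2 fold change of the cytosolic members was −0.091, with 6 higher and 15 lower, and 0 members had an unadjusted p below 0.05, against 7.52% of all genes tested. Without EV RV replicate 2 it was 0.35, with 16 higher and 5 lower, where the single EV RV library left was assumed to vary like the Tox RV libraries. In that fit 15 members were higher with an unadjusted p below 0.05 (14.5% of all genes tested were) and 2, Vars and Wars, were lower (14.9% of all genes were). Rars alone among the members then passed the adjusted threshold (log2 fold change 0.85, adjusted p = 0.0484 by edgeR), beside 393 genes in all. For the mitochondrial members the medians were 0.0061 without EV RV replicate 1 and 0.20 without EV RV replicate 2. The median of cytosolic class II genes moved most, from −0.053 without EV RV replicate 1 to 0.49 without EV RV replicate 2. The cytosolic class I median was −0.10 and −0.0037 in these fits, but single class I genes moved in both directions. Rars went from 0.16 to 0.85 and Lars from −0.091 to 0.35, whereas Vars went from −0.070 to −0.38 and Wars from −0.10 to −0.37.

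**Figure D5:**
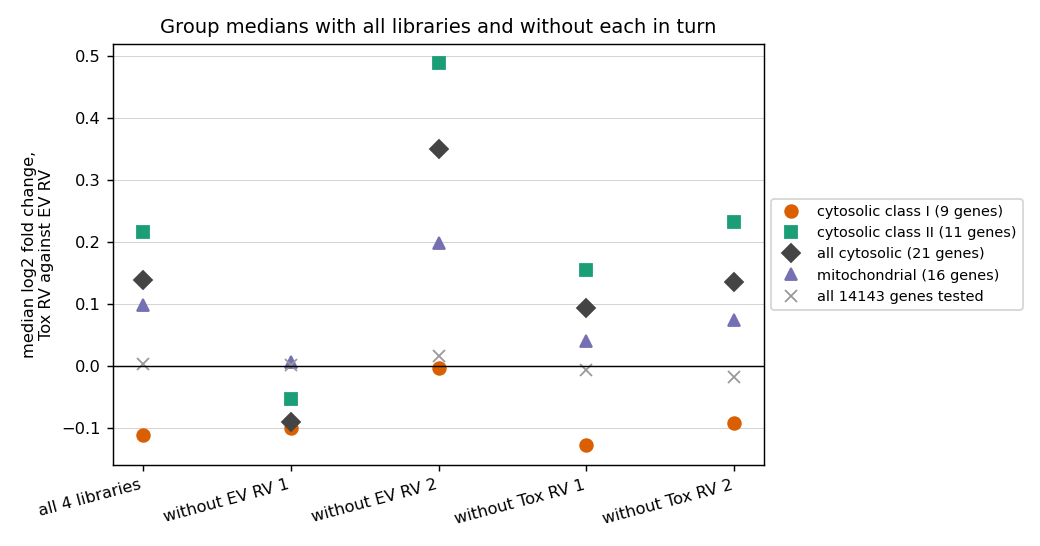
Median log2 fold change, Tox RV against EV RV, over groups of members and over all genes tested, with all 4 libraries and without each library in turn. Cytosolic class II genes run from −0.053 to 0.49 depending on the EV RV library left out, while the median of all genes stays between −0.018 and 0.016.

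Genes that act around the synthetases were also mostly lower in EV RV replicate 1 than in EV RV replicate 2. The 3 scaffold genes had log2 fold changes of 0.25 (Aimp1), 0.043 (Aimp2) and 0.46 (Eef1e1), none past the test, and all 3 were lower in EV RV replicate 1. Without that library the values were 0.17, −0.20 and 0.12. Of 15 genes that mature or export tRNAs, 14 were higher in Tox RV and 0 passed the adjusted threshold, with a median log2 fold change of 0.21 that was 0.034 without EV RV replicate 1, and 14 of them were lower in EV RV replicate 1. Among them Rtcb, the tRNA ligase, was at 151 and 180 TPM in EV RV and at 188 and 175 TPM in Tox RV. Xpot, which exports tRNAs from the nucleus, was at 42.4 and 60.9 TPM in EV RV and at 54.4 and 55.8 TPM in Tox RV. Of 4 genes that amidate or formylate mitochondrial aminoacyl-tRNAs 2 were higher and 2 lower (median 0.029, and −0.027 without EV RV replicate 1), with Gatc and Qrsl1, subunits of the amidase that makes glutaminyl-tRNA, at 10.6 to 12.8 TPM and the formylase Mtfmt at 22.1 to 25.3 TPM over the 4 libraries. Of 5 genes for editing of mischarged tRNAs and related functions 4 were higher and 1 lower (median 0.18, and 0.0048 without EV RV replicate 1), and 0 of these 9 genes passed the adjusted threshold. Eif2ak4, the kinase that senses uncharged tRNAs, was at 11.4 and 10.3 TPM in EV RV and at 11.6 and 10.3 TPM in Tox RV (log2 fold change 0.096, SE 0.17). Gcn1l1, its co-activator, was at 60.1 and 45.0 TPM in EV RV and at 43.3 and 41.4 TPM in Tox RV. Its log2 fold change was −0.22 (SE 0.19), and −0.047 without EV RV replicate 1, and neither gene passed the test.

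Of 26 genes of the Atf4 and integrated stress response, 8 were higher and 18 lower in Tox RV, and 0 passed the adjusted threshold. The median log2 fold change was −0.19, but it was −0.31 without EV RV replicate 1 and 0.25 without EV RV replicate 2, and 21 of the 26 were lower in EV RV replicate 1 than in EV RV replicate 2. Atf4 itself was at 243 and 354 TPM in EV RV and at 276 and 260 TPM in Tox RV, with both Tox RV libraries between the EV RV libraries. Eif4ebp1, which encodes an inhibitor of cap-dependent translation, was at 70.1 and 64.8 TPM in EV RV and at 42.9 and 42.2 TPM in Tox RV. Its log2 fold change was −0.58 (SE 0.16, unadjusted p = 0.0131, adjusted p = 0.897, edgeR with Benjamini-Hochberg adjustment). Chac1, a glutathione-degrading enzyme, was at 10.2 and 11.9 TPM in EV RV and at 7.55 and 6.31 TPM in Tox RV (log2 fold change −0.60, SE 0.23, unadjusted p = 0.0427, adjusted p = 0.897, same test). The log2 fold change of Chac1 was −0.74 without EV RV replicate 1 and −0.44 without EV RV replicate 2. The 2 EV RV libraries were close to each other for Eif4ebp1, unlike for most genes of the list. By contrast, Phgdh, the first enzyme of serine synthesis, was at 281 and 396 TPM in EV RV and at 301 and 326 TPM in Tox RV.

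Of 15 interferon-γ-induced genes, set beside Wars, 2 were higher and 13 lower in Tox RV, with a median log2 fold change of −0.31. This median was −0.29 without EV RV replicate 1 and −0.32 without EV RV replicate 2. No gene of the list passed the adjusted threshold by edgeR, and Gbp2, Gbp5 and Igtp had an unadjusted p below 0.05 by the same test. Gbp5, a guanylate-binding protein, was at 101 and 56.2 TPM in EV RV and at 30.9 and 32.7 TPM in Tox RV. The log2 fold change of Gbp5 was −1.21 (SE 0.28, adjusted p = 0.897 by edgeR with Benjamini-Hochberg adjustment and 0.0511 by DESeq2). It was −0.78 without EV RV replicate 1 and −1.55 without EV RV replicate 2. Gbp2 was at 751 and 537 TPM in EV RV and at 422 and 425 TPM in Tox RV. Igtp, an interferon-inducible GTPase, was at 633 and 624 TPM in EV RV and at 434 and 468 TPM in Tox RV. Both Tox RV libraries were below each EV RV library in 11 of the 15, against 17.4% of all genes tested. This list was chosen with earlier results of these data known, so the count is a description and not a test. Wars was lower in Tox RV whichever library was left out, with log2 fold changes from −0.37 to −0.10. This was not particular to Wars. Cars, Iars, Mars, Vars, Ears2, Pars2 and Tars2 were also lower whichever library was left out. The range was −0.38 to −0.070 for Vars and −0.29 to −0.19 for Pars2. On the other side, Dars, Farsb, Kars, Qars, Rars, Sars, Aars2, Iars2, Nars2 and Rars2 were higher in Tox RV whichever library was left out. A link between Wars and the interferon-γ-induced genes was not tested.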

How the data were processed

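RNA-seq libraries were grouped as EV RV or Tox RV, with their replicate numbers, from the sample labels. Reads were checked with FastQC, aligned with bowtie1 to mm10 transcripts and quantified with RSEM (--bowtie-n 1 --bowtie-m 100), as the methods state. The submitters' processing notes also list Bowtie2, and versions and strand use are not given in the sources used here. The deposited expected counts are the authors' RSEM estimates of fragments per gene in each library, not normalized. The deposited TPM values are RSEM's transcripts per 1000000 transcripts and sum to that number in each library. RSEM divides reads of similar or overlapping genes between them. A table of the whole series was not used.

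Expected counts were rounded and tested in R 4.3.3 with edgeR 4.0.16 (filterByExpr with a minimum count of 10, leaving 14143 genes, TMM scaling, glmQLFit and glmQLFTest on group only, Benjamini-Hochberg adjustment over all genes). Confidence intervals (95%) used the quasi-likelihood degrees of freedom. Levels between genes were compared in TPM and differences between libraries in TMM-scaled CPM. With 2 libraries a group no sample could be tested as outlying. Alternatives were DESeq2 1.42.0, DESeq2's size factors, library totals, no filter, the replicate number as a block, limma 3.58.1 on log2(TPM + 1), Tarsl2 counted as mitochondrial, and leaving out each library. On data simulated for this comparison, edgeR found 27% of the 100 genes given a 2-fold change and 93% of the 100 given a 4-fold change, and also called 25 unchanged genes among 13989. DESeq2 found 48% and 96% and called 44 unchanged genes among 14143. No simulated library stood apart from the others as EV RV replicate 1 did, so these shares need not hold for the real data. There Tox itself, at a fitted 12.8-fold, had an adjusted p of 0.490 by edgeR's quasi-likelihood test.

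The members and the pathway and marker lists were chosen with earlier results of these data known. Values in every library were given for members with the 5 highest levels, the 5 largest fold changes, the 5 smallest p-values and the 5 largest differences between EV RV libraries, and for pairs of enzymes for the same amino acid. List genes were named for an unadjusted p below 0.05 or a level among the 3 highest of their list. Lars2, Pars2, Cars, Tarsl2, Wars2 and other members named outside this rule were chosen after their values were seen. Exon overlaps came from GENCODE M21. Transcripts were matched with blastn at a minimum of 95% identity over 150 bases. Some sequence is not reported here.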

Additional observations from a re-analysis of the deposited data

How the results depend on the processing

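The count of members past the adjusted threshold was 0 in the 6 alternatives that kept all libraries, and 0 to 1 when each library was left out in turn. The median log2 fold change ran from −0.091 to 0.35 for cytosolic and from 0.0061 to 0.20 for mitochondrial members when each library was left out in turn, the lowest without EV RV replicate 1 and the highest without EV RV replicate 2. With library totals the mitochondrial median was 0.21, beside 0.12 for all genes. With Tarsl2 counted as mitochondrial the medians were 0.15 and 0.088. The sign held in all 10 alternatives for 16 of the 37 members and changed in at least 1 for 21. With library totals the sign changed for Aars (0.081), Gars (0.029), Mars (0.0048), Yars (0.078), Hars2 (0.12), Tars2 (0.069) and Vars2 (0.016). By DESeq2, with DESeq2's size factors in edgeR and by limma it changed for Cars2 (−0.0047, −0.0043 and −0.066) and Fars2 (−0.000715, −0.0011 and −0.082). Without the filter it changed for Hars2 (0.013). Leaving out each library gave log2 fold changes on both sides of 0 for Aars (−0.18 to 0.13), Eprs (−0.11 to 0.47), Farsa (−0.063 to 0.49), Gars (−0.23 to 0.072), Hars (−0.0075 to 0.56), Lars (−0.091 to 0.35), Nars (−0.15 to 0.49), Tars (−0.053 to 0.54), Tarsl2 (−0.11 to 0.28) and Yars (−0.20 to 0.15), and among mitochondrial members for Cars2 (−0.17 to 0.19), Fars2 (−0.12 to 0.13), Hars2 (−0.055 to 0.045), Lars2 (−0.34 to 0.52), Mars2 (−0.12 to 0.37), Sars2 (−0.043 to 0.26), Vars2 (−0.23 to 0.0017), Wars2 (−0.020 to 0.20) and Yars2 (−0.10 to 0.40). The cause of these changes was not tested.

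The labels number the replicates 1 and 2 in both groups but do not say that a number marks a shared mouse, and with 2 pairs this could not be settled. The replicate differences of the groups had a correlation of 0.302 over genes. With the replicate number as a block the medians were 0.16 for cytosolic and 0.098 for mitochondrial members, 0 members and 16 genes in all passed the adjusted threshold, against 0 genes without the block, and every member kept its sign. With 2 libraries a group, intervals of single members reach from 0.621-fold to 2.15-fold, which limits what differences can be seen.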
